A study of Mus musculus with 16 samples.

Results

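The 10 genes described here, Duox2, Dlgap3, Clca2, Ppef1, Dpp4, Epor, Ackr4, Kbtbd11, Adora2a and Pcdh12, were listed because their mRNA was thought to fall strongly when mouse brain endothelial cells were treated with rapamycin. They are 10 of the 54193 genes to which counts were assigned, and all 10 passed the filter on low counts that left 14838 genes for testing. The genes were chosen by their log2 fold changes in the rapamycin contrasts of these same libraries, so the rapamycin values below are a description and carry no test. For 9 of the 10 genes the label held: every rapamycin library lay below every untreated library of the same genotype, in KO and in WT cells. Ackr4 went against the label, since its counts were higher in all 5 rapamycin libraries than in any untreated library.

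RNA-seq was performed on brain microvascular endothelial cells (mBMEC) isolated from the brains of several 8- to 10-week-old Cdh5(PAC)-CreERT2/Pdcd10 fl/fl mice on a C57BL/6J background and pooled for each culture, in which an endothelial promoter drives a tamoxifen-inducible Cre and Pdcd10, the mouse gene for CCM3, is floxed. Loss of CCM3 in brain endothelium causes cerebral cavernous malformations, and the study asked whether 2 drugs, propranolol and rapamycin, revert the effect of that loss. The 16 libraries were 3 WT (no 4-hydroxytamoxifen, 4-OHT), 3 KO (4-OHT), 2 WT+P and 3 KO+P (10 µM propranolol for 24 h), and 2 WT+R and 3 KO+R (100 nM rapamycin for 24 h), with 18.83 to 26.2 M counts each. All groups carried the Cre and the floxed allele, were selected with puromycin and were used at passage 2, and the effect of 4-OHT itself cannot be told apart from that of the deletion.

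Pdcd10 itself was measured first as a check of the labels. The KO libraries had 9.72, 11.0 and 9.73 CPM (counts scaled to library size, normalised with TMM) and the WT libraries 11.5, 31.2 and 47.0 CPM. The library labelled WT replicate 1 therefore lay at the KO level, whereas the WT+P and WT+R libraries ranged from 27.7 to 60.8 CPM. The KO+P and KO+R libraries, at 7.83 to 16.7 CPM, lay near the KO level. The log2 fold changes of the 10 genes against untreated WT cells are therefore also given without that library. The cells carried the mRNA of endothelium: all 12 endothelial markers examined exceeded a mean of 1 CPM, and Cdh5, which encodes VE-cadherin, had between 2450 and 5190 CPM.

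Rapamycin binds FKBP12, and the complex inhibits the kinase mTORC1, which couples nutrients and growth factors to translation, lipid synthesis and cell growth. The 10 genes belong to no single pathway. They encode an oxidase and a chloride channel regulator best known from epithelia (Duox2, Clca2), a scaffold of the postsynapse (Dlgap3), a calcium-responsive phosphatase (Ppef1), a surface peptidase (Dpp4), receptors for erythropoietin, chemokines and adenosine (Epor, Ackr4, Adora2a), a kelch protein of the ubiquitin system (Kbtbd11) and an endothelial protocadherin (Pcdh12).

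**Figure D1:**
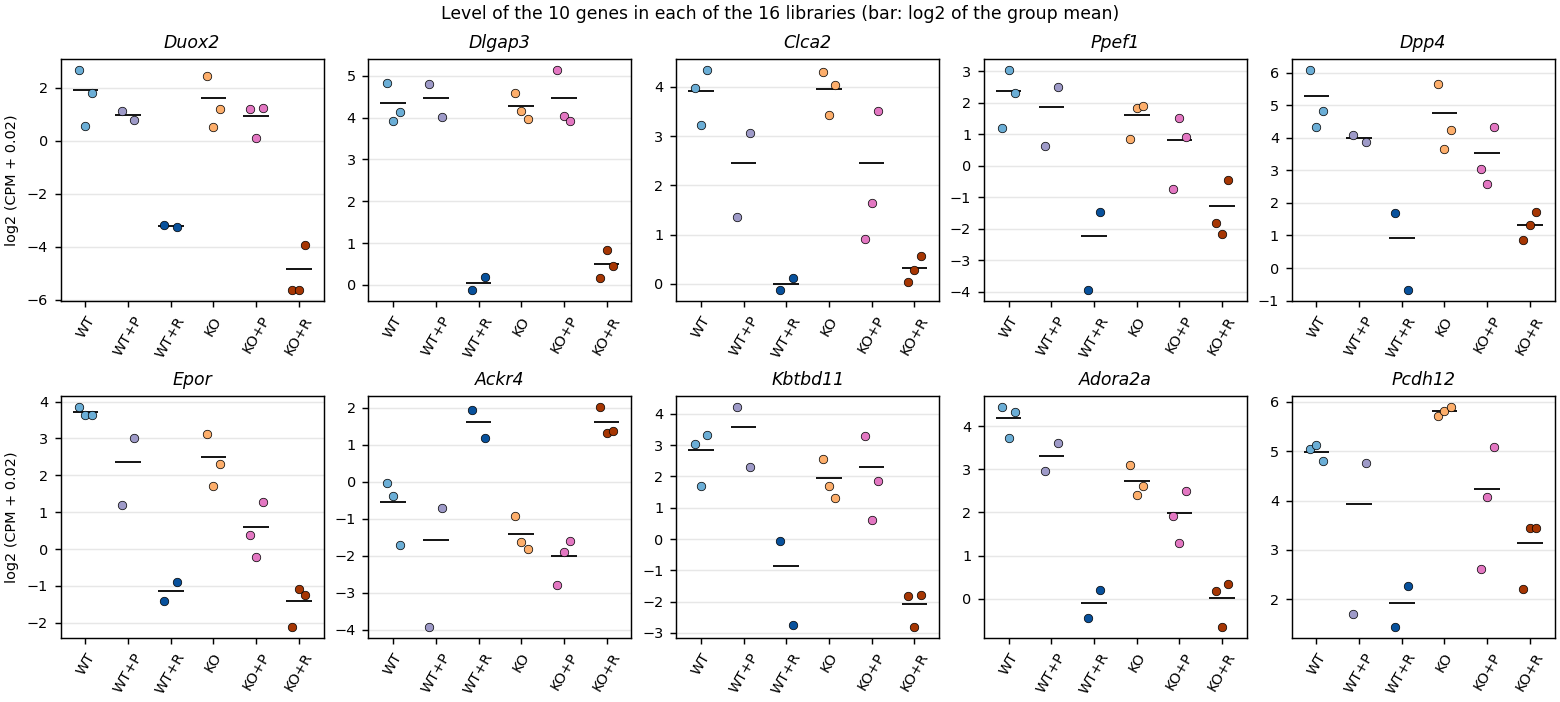
Level of each gene on the y axis as log2 of CPM plus 0.02, with the 6 groups on the x axis and a point for each of the 16 libraries; bars mark the group means. In 9 panels the WT+R and KO+R points sit below all untreated points of their genotype, and in the Ackr4 panel they sit above them.

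Of the 14838 genes tested, 0.802% were called lower and 0.708% higher in KO+R against KO cells, at a Benjamini-Hochberg adjusted p under 0.05 and a fold change above 1.5 in edgeR's quasi-likelihood test, and 0.748% and 0.647% in WT+R against WT cells. The 10 genes were chosen in these contrasts, so no calls are given for them. Libraries did not overlap and rapamycin was lower for 9 of the 10, against 13.2% of all genes in KO and 14.7% in WT cells, and higher for Ackr4, against 10.9% and 14.0%. Their places in the list of all tested genes, ordered from the largest fall, ran from 5 for Duox2 to 100 for Pcdh12 in KO cells and from 33 for Duox2 to 129 for Pcdh12 in WT cells. The 9 genes were thus near the low end in both genotypes but were not the lowest. In WT+R against WT cells their log2 fold changes ran from -5.33 to -3.08, and from -5.04 to -3.06 without the library labelled WT replicate 1. Leaving it out moved Duox2 from -5.33 to -4.74 and Dpp4 from -4.37 to -3.70, and Ackr4 from 2.18 to 2.54. The other 7 then stood at -5.04 for Ppef1, -4.80 for Epor, -4.17 for Adora2a, -4.01 for Dlgap3, -3.90 for Clca2, -3.62 for Kbtbd11 and -3.06 for Pcdh12.

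Without drug the genes differed widely in abundance. Per transcript length, in TPM, the authors' transcript level scaled to library size, the level in untreated WT cells was 15.1 ± 1.06 for Epor, 14.9 ± 1.48 for Pcdh12, 12.5 ± 6.39 for Dpp4 and 12.3 ± 2.87 for Adora2a (SD, n = 3), which differed by less than their spread. Dlgap3 (8.81 ± 2.84 TPM) and Clca2 (6.45 ± 2.68 TPM) followed. Ppef1 (3.65 ± 2.09 TPM), Kbtbd11 (1.70 ± 0.946 TPM), Duox2 (1.08 ± 0.638 TPM) and Ackr4 (0.576 ± 0.262 TPM) were at the low end.

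Promoter windows are printed for Duox2, which had the lowest counts with rapamycin, for Epor, whose window held the most motif matches, and for Ackr4, which moved the other way. RefSeq windows of 300 bases, 250 before and 50 after the annotated start, were found for 7 of the 10 genes, not for Adora2a, Kbtbd11 or Pcdh12. The start used for Ackr4 was 104003842 in GRCm39. Its transcript with 54.9% of the counts starts at 103978210, and that with 42.7% at 104004132. For Duox2 the start used was 122128708, between those of its main counted isoforms, 122128646 and 122128930. The RefSeq table was made on GRCm38.p6, and each window was placed by an exact match that occurred once in GRCm39: chr2:122128659-122128958 for Duox2, chr9:21874823-21875122 for Epor and chr9:104003793-104004092 for Ackr4, all on the minus strand and printed 5′ to 3′ in the direction of the gene. Capitals mark matches to the motifs searched.
Duox2: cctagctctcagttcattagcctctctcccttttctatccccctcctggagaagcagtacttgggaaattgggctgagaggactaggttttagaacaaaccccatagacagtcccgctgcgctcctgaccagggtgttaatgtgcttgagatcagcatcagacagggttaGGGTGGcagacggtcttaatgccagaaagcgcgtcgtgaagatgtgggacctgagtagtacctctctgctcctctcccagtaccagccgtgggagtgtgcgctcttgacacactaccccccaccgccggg
Epor: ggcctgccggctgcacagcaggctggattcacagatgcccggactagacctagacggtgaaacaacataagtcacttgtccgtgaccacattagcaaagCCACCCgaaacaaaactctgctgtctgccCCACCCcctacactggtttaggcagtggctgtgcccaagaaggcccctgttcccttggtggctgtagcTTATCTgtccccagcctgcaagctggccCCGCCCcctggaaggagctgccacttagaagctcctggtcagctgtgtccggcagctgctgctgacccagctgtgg
Ackr4: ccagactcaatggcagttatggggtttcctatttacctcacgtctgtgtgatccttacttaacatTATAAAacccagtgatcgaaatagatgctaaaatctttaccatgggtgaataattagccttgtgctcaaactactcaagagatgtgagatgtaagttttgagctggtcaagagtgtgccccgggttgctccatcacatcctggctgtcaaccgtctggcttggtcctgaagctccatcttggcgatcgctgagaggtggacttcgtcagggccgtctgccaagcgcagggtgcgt

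Searched on both strands were the GC box (GGGCGG), E-box (CACGTG), cyclic AMP response element (TGACGTCA), GATA motif (AGATAA), AP-1 motif (TGANTCA), STAT motif (TTCNNNGAA), TATA box (TATAAA) and KLF motif (CCACCC), and no matches in the 7 windows overlapped. The KLF motif stood on the strand of the gene in the windows of Epor (at -151 and -122 from the start) and Clca2 (at -7). On the other strand it stood in those of Duox2 (at -80) and Dlgap3 (at -240 and -44). The Dlgap3 window was placed by a start at 127066673, whereas the transcript with 98.1% of its counts starts at 127062750. The Dlgap3 positions therefore do not describe the start of the mRNA counted here. Of all 32851 mouse promoter windows of that length, 31.5% held it. Epor also held a GATA motif at -54 and a GC box at -26, both on the other strand, which 11.2% and 35.7% of all windows hold. Ackr4 held only a TATA box at -185, as did Ppef1 at -244 on the other strand. Dpp4 held a TATA box at -227 and a GATA motif at -32 (13.6% of all windows hold a TATA box). Clca2 further held a STAT motif at 7, which 8.3% of windows hold. None of the 7 windows held an E-box, a cyclic AMP response element or an AP-1 motif, which occur in 7.15%, 1.79% and 7.81% of all windows. These matches describe letters in a window and not binding.

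Duox2 encodes dual oxidase 2, an NADPH oxidase that releases hydrogen peroxide for thyroid hormone synthesis and mucosal defence. It lies on chromosome 2 (GRCm39, 122109728 to 122128930, minus strand). The counts were 137, 39 and 85 in the WT libraries, 138, 37 and 51 in the KO libraries, 2 and 2 in the WT+R libraries and 0, 0 and 1 in the KO+R libraries. Duox2 mRNA was thus close to undetected with rapamycin and present in every other library, with 47 and 43 counts in WT+P and 54, 25 and 45 in KO+P cells. The ratio of the summed counts, scaled for depth, was 0.00503 in KO cells (1 against 226 counts, exact 95% interval 0.000127 to 0.0283, counting error only) and 0.0245 in WT cells (4 against 261, interval 0.00662 to 0.0634). The fitted log2 fold change of -7.20 in KO cells rests on that 1 count, in KO+R replicate 3, and was -9.13 without this library and -6.48 without KO replicate 1. Both 95% intervals hold counting error only, not the spread between libraries or the choice of Duox2 for its fall, and are not a test. Counts were shared between protein-coding isoforms of 5744 (50.6%) and 6112 bases (48.1%), and the longer took 12.0% of 90 counts in WT+P and 72.7% of 124 counts in KO+P cells.

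The other genes needed for dual oxidase activity gave little signal. Duoxa2, the maturation factor that lies 450 bases away in head-to-head orientation, had 1 count in all 16 libraries together, and Duox1 had 42 counts. In the list of 15 NADPH oxidases and partners, 5 genes could be tested and 0 were called in either rapamycin contrast in edgeR (medians of the log2 fold changes 0.11 and 0.14, against -0.02 and -0.01 for all genes). Nox4, the main NADPH oxidase of endothelium, had 263 ± 77.4 CPM in KO and 182 ± 30.6 in KO+R cells (log2 fold change -0.53 ± 0.2 SE, adjusted p = 0.27 in edgeR), and 521 ± 69.7 in WT (n = 3) and 261 ± 36.2 in WT+R cells (n = 2) (-1.0 ± 0.23, adjusted p = 0.0527). Nox4 was called in WT cells in 5 of 22 alternatives, namely with the replicate number as a block (adjusted p = 0.0164), in DESeq2 (adjusted p = 0.00127), without the filter on low counts and without KO replicate 1 or 3. Noxo1, an organiser subunit of oxidases, had 0.94 in KO and 1.19 in WT cells (adjusted p = 0.123 and 0.0618 in edgeR). It was called as higher in each genotype in 2 of 22 alternatives, the block (adjusted p = 0.0308 and 0.031) and DESeq2 (adjusted p = 0.0331 and 0.0069).

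Clca2 encodes a member of the CLCA family, secreted or membrane-bound proteins that regulate calcium-activated chloride channels. The gene is on chromosome 3 (144776024 to 144805204, minus strand). The counts were 344, 249 and 493 in WT, 505, 282 and 367 in KO, 20 and 25 in WT+R and 19, 29 and 33 in KO+R libraries. Rapamycin libraries were alike in both genotypes, at 0.985 ± 0.127 CPM (SD, n = 2) in WT+R and 1.22 ± 0.234 CPM (n = 3) in KO+R cells. The log2 fold change was -3.66 ± 0.66 (SE) in KO and -3.93 ± 0.79 in WT cells, and -2.64 in KO cells with transcript length as an offset. KO+R replicate 2 had 2.37 TPM against 0.326 and 0.562 TPM in replicates 1 and 3, although its 1.19 CPM lay between theirs. A transcript of 331 bases had 2.0 counts in KO+R cells and none in the other groups. Its part in the lower value was not tested. The neighbouring family member Clca1, 37487 bases away, had 3 counts in all libraries, and of the 9 listed chloride channel and CLCA genes 3 could be tested and 0 were called in edgeR or DESeq2.

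Dlgap3 (SAPAP3) encodes a scaffold that links PSD-95 to Shank proteins at excitatory synapses. It occupies chromosome 4 (127062750 to 127130847, plus strand). Counts of 612, 407 and 425 in WT and 624, 472 and 350 in KO libraries stood against 20 and 26 in WT+R and 21, 43 and 30 in KO+R libraries. Its standard errors were, with those of Adora2a, the smallest of the 10 genes, and the log2 fold change was -3.76 ± 0.40 in KO and -4.32 ± 0.49 in WT cells. In the 4 groups without rapamycin its mean stayed between 19.2 and 22.2 CPM, and these groups overlapped. Of 13 listed postsynaptic scaffold genes, 10 were tested. In edgeR and DESeq2 Homer1 alone, which binds Shank and metabotropic glutamate receptors, fell in KO cells (9.12 ± 2.13 to 5.03 ± 0.621 CPM, log2 fold change -0.86 ± 0.19, adjusted p = 0.0455), an edgeR call that was kept in 0 of 16 fits that left out a library (adjusted p up to 0.201, without KO replicate 2); in WT cells its value was -0.46 ± 0.22 (adjusted p = 0.402). Of the neuronal markers, Rbfox3, Snap25, Syt1 and Map2 had 26, 12, 6 and 46 counts in all libraries together, and the other 3 were tested without a call in edgeR. The summed level of the 7, most of it Stmn2, was 14.0 to 70.0 CPM in WT, 34.0 and 94.6 CPM in WT+R, 38.6 to 62.7 CPM in KO and 62.9 to 83.6 CPM in KO+R libraries. In KO and WT cells Stmn2, a regulator of microtubules, had log2 fold changes of 0.71 and 1.05 (adjusted p = 0.781 and 0.672), Nefl, a neurofilament gene, -1.81 and -2.06 (adjusted p = 0.267 and 0.291) and Tubb3 -0.94 and -1.27 (adjusted p = 0.607 and 0.532 in edgeR).

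Ppef1 encodes a serine/threonine phosphatase with calcium-binding EF hands. It lies on the X chromosome (159405690 to 159518761, minus strand). The counts were 50, 220 and 122 in WT, 46, 94 and 84 in KO, 1 and 8 in WT+R and 5, 5 and 16 in KO+R libraries. Replicate libraries were far apart in every group, and the log2 fold change of -4.69 ± 1.05 in WT cells became -3.89 without WT+R replicate 1 and -6.69 without WT+R replicate 2. In KO cells it was -2.92 ± 0.80, and -3.65 without KO+R replicate 3. Its only close relative, Ppef2, had 3 counts in all libraries, and 0 of the 4 tested genes of the list of EF-hand phosphatases and calmodulin were called in edgeR or DESeq2.

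Dpp4 encodes dipeptidyl peptidase 4 (CD26), a surface enzyme that trims incretins and chemokines such as CXCL12. It lies on chromosome 2 (62159798 to 62242576, minus strand). Counts were 1477, 545 and 697 in WT, 1312, 335 and 427 in KO, 71 and 14 in WT+R and 34, 60 and 73 in KO+R libraries. The highest untreated library of each genotype was replicate 1, and the fall in KO cells was -3.45 ± 0.73 with KO replicate 1 and -2.65 ± 0.68 without it. In WT cells it was -4.37 ± 0.90, and -6.0 ± 1.26 without WT+R replicate 1, -3.61 ± 1.06 without WT+R replicate 2 and -3.70 ± 0.85 without the library labelled WT replicate 1.

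Of the 12 genes listed as the Dpp4 family and its substrates, 9 were tested, and Cxcl12, which encodes a chemokine that Dpp4 inactivates, was the sole call in each genotype in edgeR and in DESeq2. Its level was 282, 398 and 313 CPM in KO against 1086, 1408 and 1111 CPM in KO+R libraries. Cxcl12 rose by 1.86 ± 0.22 on the log2 scale (adjusted p = 0.00259) and remained called in all 22 alternative fits. In WT cells, where 438, 511 and 572 CPM stood against 1369 and 1009 CPM with rapamycin, it rose by 1.23 ± 0.24 (adjusted p = 0.0244), and 16 of 22 alternatives kept the call. Leaving out any of the WT or WT+R libraries ended it, with adjusted p up to 0.29 (0.99 on the log2 scale, without WT+R replicate 1). Dpp4, which was chosen for its fall, and this substrate therefore moved in opposite directions at the mRNA level. A relation between them was not tested. Cxcl10 and Ccl5, also listed as substrates, had 0.04 ± 0.87 and 0.38 ± 1.1 in KO cells (adjusted p = 0.995 and 0.948 in edgeR). In WT cells they had 0.64 ± 0.98 and 2.09 ± 1.27 (adjusted p = 0.873 and 0.57 in edgeR). Fap, the closest relative of Dpp4, had 39 counts in all libraries.

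Epor encodes the erythropoietin receptor, which signals through JAK2 and STAT5 and is also present on endothelial cells. It lies on chromosome 9 (21870192 to 21874879, minus strand). The counts were 315, 329 and 300 in WT, 222, 86 and 111 in KO, 8 and 12 in WT+R and 4, 11 and 9 in KO+R libraries. The log2 fold change was -3.94 ± 0.57 in KO and -4.88 ± 0.70 in WT cells, and the rapamycin groups, at 0.355 ± 0.126 and 0.437 ± 0.111 CPM, overlapped. Swsap1, on the other strand, shares 42.6% of the exonic bases of Epor, and reads from the 2 genes cannot be told apart by strand in unstranded libraries. Swsap1 had -0.06 ± 0.18 in KO and -0.27 ± 0.20 in WT cells (adjusted p = 0.953 and 0.672). Epo, the ligand, had 0 counts, and 4 of 6 erythroid markers were at 0 in all libraries, with a summed level of at most 0.0891 CPM in any library.

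Of 14 listed genes of erythropoietin receptor signalling, 12 were tested, and Pim1, a STAT5-induced kinase gene, was the sole call in each genotype in edgeR. It rose by 2.48 ± 0.53 on the log2 scale in KO cells (18.5, 12.4 and 13.9 CPM against 145, 43.0 and 60.9 CPM, adjusted p = 0.0364) and by 2.75 ± 0.56 in WT cells (31.4, 17.4 and 20.1 CPM against 237 and 71.0 CPM, adjusted p = 0.0299). The call was kept in 15 of 22 alternatives in KO and 17 of 22 in WT cells. It was lost in KO cells without any of the KO libraries or KO+R replicates 1 or 3 (1.83, adjusted p = 0.144, without KO+R replicate 1), and in WT cells without any of the WT libraries or WT+R replicate 1 (1.63, adjusted p = 0.428, without the latter). Lyn, a Src family kinase gene, had -0.83 ± 0.25 in WT cells (adjusted p = 0.131 in edgeR), and was called there in 3 of 22 alternatives, DESeq2 (adjusted p = 0.0352) and the fits without WT+P replicate 1 or 2; in KO cells it had -0.60 ± 0.22 (adjusted p = 0.243). Kit, a receptor of erythroid precursors that is also found on endothelium, had -1.4 ± 0.78 and -1.38 ± 0.89 (adjusted p = 0.505 and 0.604).

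Adora2a encodes an adenosine receptor coupled to the stimulatory G protein, which raises cyclic AMP and widens vessels. The gene is on chromosome 10 (75152560 to 75170628, plus strand). Counts were 476, 353 and 488 in WT, 222, 138 and 138 in KO, 16 and 26 in WT+R and 21, 15 and 28 in KO+R libraries. Untreated WT and KO libraries did not overlap, whereas both rapamycin groups came to about the same level, 0.917 ± 0.284 and 0.991 ± 0.333 CPM. The log2 fold change was accordingly -4.32 ± 0.49 in WT and -2.75 ± 0.39 in KO cells, a difference that was not tested. Of 9 adenosine receptors and enzymes, 7 were tested and 0 were called in edgeR or DESeq2. The related receptor gene Adora2b had -1.33 in both genotypes (SE 1.11 and 1.21, adjusted p = 0.716 and 0.748).

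Kbtbd11 encodes a protein with a BTB domain and kelch repeats, a class of which many members bring substrates to cullin 3 ubiquitin ligases. It maps to chromosome 8 (15061025 to 15083333, plus strand). Counts were 176, 85 and 243 in WT, 152, 85 and 55 in KO, 21 and 3 in WT+R and 5, 3 and 6 in KO+R libraries. Its highest library was a propranolol library, with 405 counts in WT+P replicate 1. The log2 fold change with rapamycin was -4.13 ± 0.92 in KO cells and -3.72 ± 1.01 in WT cells, and in WT cells -5.72 without WT+R replicate 1 and -2.91 without WT+R replicate 2. Of 10 listed BTB and kelch genes with cullin 3, 9 were tested and 0 were called in edgeR or DESeq2 (medians -0.05 and -0.08).

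Pcdh12, also known as VE-cadherin-2, encodes a protocadherin of endothelial cell contacts. It maps to chromosome 18 (38400142 to 38417455, minus strand). Counts were 715, 934 and 675 in WT, 1350, 1480 and 1349 in KO, 60 and 112 in WT+R and 87, 267 and 243 in KO+R libraries. The lowest untreated library had 675 counts and the highest rapamycin library 267. Its log2 fold changes, -2.67 ± 0.68 in KO and -3.08 ± 0.83 in WT cells, were the smallest falls of the 9 genes. A transcript of 2407 bases with a retained intron took 40.1% of the counts of the gene, with 40.9% in KO and 31.4% in KO+R cells, and the protein-coding transcript of 5546 bases took 55.2% and 64.6%.

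Of 11 listed protocadherin genes and Cdh5, 6 were tested. Pcdh1, another protocadherin of endothelium and epithelium, fell in both genotypes, from 1080 ± 88.6 to 620 ± 67.1 CPM in KO cells (log2 fold change -0.80 ± 0.18, adjusted p = 0.0499) and from 1100 ± 238 to 463 ± 13.9 CPM in WT cells (-1.25 ± 0.21, adjusted p = 0.0163). The KO call was kept in 7 of 22 alternatives and was lost without any of the KO, KO+R, KO+P or WT+R libraries or that labelled WT replicate 1 (adjusted p up to 0.231, without KO+R replicate 1). The WT call was kept in 19 and lost without either WT+R library (adjusted p = 0.191 and 0.0856). Pcdh7 rose in WT cells (49.7, 49.3 and 68.0 CPM against 151 and 102 CPM, log2 fold change 1.18 ± 0.25, adjusted p = 0.035), a call kept in 12 of 22 alternatives and lost without any of the WT or WT+R libraries, KO replicate 3, KO+P replicate 2 or KO+R replicate 2 (adjusted p up to 0.395, without WT+R replicate 1), and had 0.70 ± 0.23 in KO cells (adjusted p = 0.192). Cdh5, which Pcdh12 resembles in its place at endothelial contacts, had -0.20 ± 0.16 and -0.68 ± 0.18 (adjusted p = 0.70 and 0.0874 in edgeR), and DESeq2 called it in WT cells (adjusted p = 0.00218).

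Ackr4 encodes an atypical receptor that takes up the chemokines CCL19, CCL21 and CCL25 without signalling through G proteins. Ackr4 is on chromosome 9 (103961356 to 104004132, minus strand). Counts were 21, 20 and 7 in WT, 13, 8 and 6 in KO, 85 and 53 in WT+R and 77, 61 and 58 in KO+R libraries. The lowest rapamycin library thus had 53 counts and the highest untreated library 21. Ackr4 was 8.39-fold higher in KO+R than in KO cells (log2 3.07 ± 0.66) and 4.54-fold higher in WT+R than in WT cells (2.18 ± 0.67), and the direction was the same in all 22 alternative fits of each contrast. Acad11, on the other strand, covers 20.3% of its exonic bases, and in unstranded libraries reads there cannot be told apart; Acad11 had 0.47 ± 0.35 and 0.40 ± 0.38 (adjusted p = 0.662 and 0.762).

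The ligand genes Ccl19 and Ccl21a and the receptors Ccr7 and Ccr9 were too low to be tested, and 0 of the 4 tested genes of the list of 9 atypical chemokine receptors and ligands were called in edgeR. Ackr3 (CXCR7), a scavenger of CXCL12, had -1.88 ± 0.69 in KO and -2.76 ± 0.84 in WT cells (adjusted p = 0.257 and 0.143), and DESeq2 called it in WT cells (adjusted p = 0.00427). Ackr1, which marks venules, had 2.62 ± 1.09 and 3.08 ± 1.18 (adjusted p = 0.327 and 0.27). Ackr2, a scavenger of inflammatory CC chemokines, had 0.22 ± 0.45 and 1.46 ± 0.50 (adjusted p = 0.909 and 0.197), and the ligand gene Ccl25 0.16 ± 0.19 and -0.03 ± 0.22 (adjusted p = 0.826 and 0.974). Ackr1, Ackr2 and Ackr3 thus had values of both signs, none of which passed the test in edgeR.

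**Figure D2:**
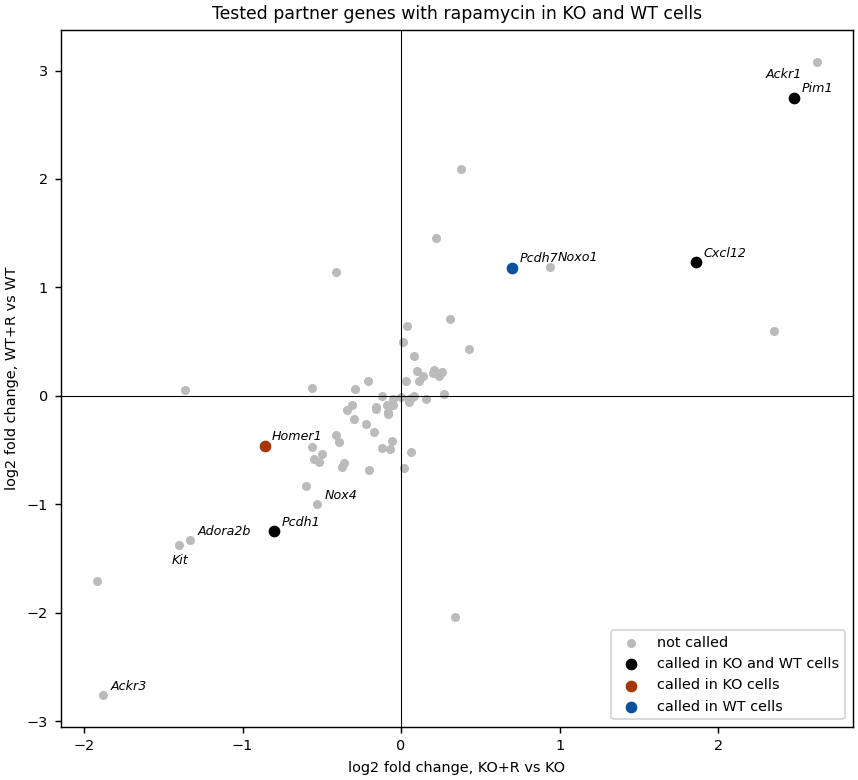
Log2 fold change with rapamycin in KO cells (x axis) and WT cells (y axis) of the 69 tested partner genes, with a point for each gene. Black points were called in edgeR in both genotypes (Cxcl12, Pim1 and Pcdh1), the orange point in KO cells (Homer1) and the blue point in WT cells (Pcdh7).

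Over all 10 lists, 69 of 107 partner genes were tested and 4 were called in each rapamycin contrast in edgeR (5.8% of those tested, against 1.51% of all genes in KO and 1.4% in WT cells). They were 2 that rose and 2 that fell in KO cells, and 3 that rose and 1 that fell in WT cells. The medians of the log2 fold changes were -0.07 and -0.06, close to those of all genes. The 2 contrasts share no library, but the lists were drawn up with results of these libraries known. DESeq2 called 5 in KO and 9 in WT cells (against 3.19% and 3.65% of all genes), the latter with Nox4, Noxo1, Lyn, Ackr3 and Cdh5 besides the 4. Without the library labelled WT replicate 1, Cxcl12 and Pim1 were called in KO and only Pcdh1 in WT cells.

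None of the tested neighbouring or overlapping genes reported here passed edgeR's test in either rapamycin contrast. The nearest protein-coding gene on each side was taken for each of the 10 genes. Specc1l, 3982 bases from Adora2a, had 0.17 ± 0.14 in KO and 0.18 ± 0.16 in WT cells (adjusted p = 0.719 and 0.725). Dele1, 1628 bases from Pcdh12, had -0.14 ± 0.12 and -0.03 ± 0.13 (adjusted p = 0.722 and 0.957), and Tmem35b, 39311 bases from Dlgap3, had 0.25 ± 0.23 and 0.56 ± 0.26 (adjusted p = 0.757 and 0.398). Gm37844, whose exons cover 24.8% of those of Kbtbd11 on the other strand, had 65 counts in all libraries and -1.13 ± 1.08 and -2.54 ± 1.25 (adjusted p = 0.769 and 0.436). Slc4a10 and Gcg, on either side of Dpp4, had 28 and 2 counts.

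**Figure D3:**
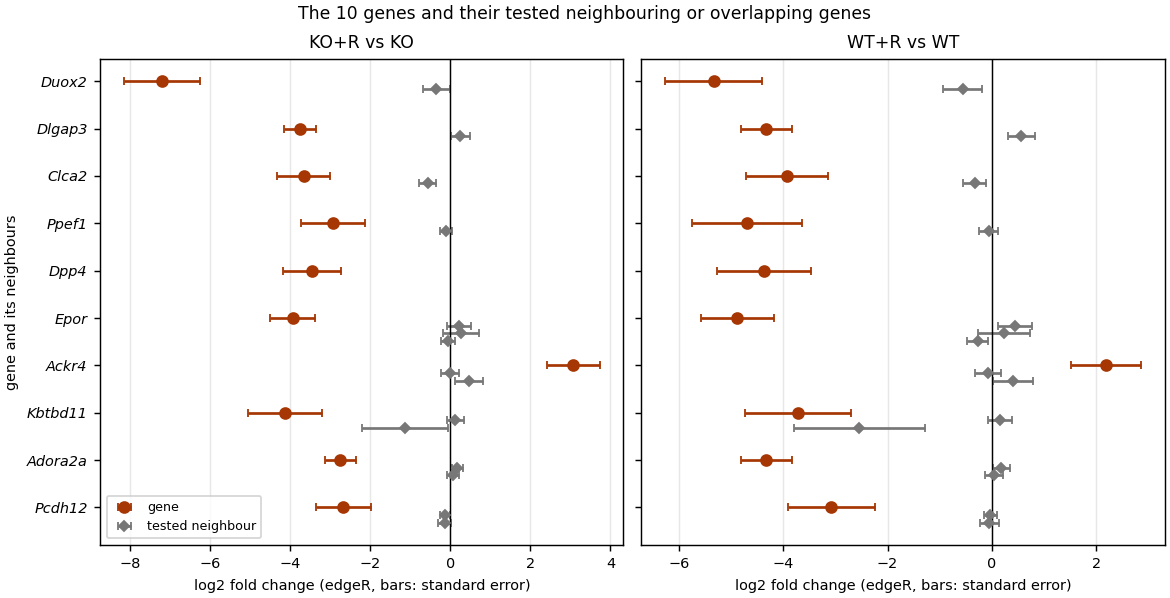
Log2 fold change with rapamycin (x axis; bars, standard error) of each of the 10 genes (orange circles) and of its tested neighbouring or overlapping genes reported here (grey diamonds, on the row of the gene and just under it), in KO cells on the left and WT cells on the right. Most diamonds lie near 0, and Gm37844 under Kbtbd11 has the lowest value, with a bar of 1.08 in KO and 1.25 in WT cells.

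The comparison of untreated KO with WT cells asks what loss of Ccm3 does to these genes, and was not used to choose them, although it shares the untreated libraries with the rapamycin contrasts. Of the 10 genes, 0 were called in edgeR (0.00674% of all genes were), 2 had an unadjusted p under 0.05 (6.07% of all genes had) and DESeq2 called 1 (0.431% of all genes). Adora2a measured 18.4 ± 4.59 CPM in untreated libraries labelled WT and 6.66 ± 1.74 CPM in those labelled KO (SD, n = 3). That WT mean includes WT replicate 1, whose Pdcd10 lay at the KO level. The log2 fold change of Adora2a was -1.46 ± 0.36, with an adjusted p of 0.39 in edgeR, 0.0682 with the replicate block and 0.0168 in DESeq2. Without the library labelled WT replicate 1 it was -1.33 ± 0.40 (adjusted p = 0.554). Epor measured 13.0 ± 1.27 CPM in untreated WT cells and 5.60 ± 2.73 CPM in untreated KO cells, a log2 fold change of -1.22 ± 0.49 (adjusted p = 0.717 in edgeR), and -1.14 ± 0.55 without that library (adjusted p = 0.891). Adora2a and Epor were thus lower in each KO library than in each WT library but failed the correction over all genes in edgeR, while Adora2a passed it in DESeq2.

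Pcdh12 was the 1 gene of the 10 that was higher in KO cells without overlap. Its 3 KO libraries, at 52.3 to 59.9 CPM, lay above its 3 WT libraries, at 27.7 to 34.9 CPM (log2 fold change 0.82 ± 0.64, adjusted p = 0.996 in edgeR). The fit uses a single estimate of the spread of Pcdh12 over all 6 groups, and its KO+P libraries ran from 6.12 to 33.9 CPM. With only the groups compared, and so without the KO+P libraries, 0 of the 10 genes were called either (0.0% of all genes were). In all, 2 genes were lower and 1 higher without overlap, against 6.5% and 6.69% of all genes. The median of the log2 fold changes over the 10 genes was -0.64, with 8 values below 0, against -0.01 for all genes. Without the library labelled WT replicate 1 the median was -0.24, with 5 of 10 values below 0. For Duox2, Dlgap3, Clca2 and Dpp4 the sign of the value changed between alternatives, and without that library Duox2 had 0.27 ± 0.62 and Dpp4 0.16 ± 0.68 (-1.03 and -1.30 without KO replicate 1). Dlgap3 had 0.23, Clca2 0.06, Pcdh12 0.83, Ackr4 -0.53, Kbtbd11 -0.78 and Ppef1 -1.13 without the library labelled WT replicate 1.

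Propranolol is a blocker of beta-adrenergic receptors. No gene of the 10 passed edgeR's test in KO+P against KO cells or in WT+P against WT cells (0.00674% of all genes did in each), where 3 and 2 had an unadjusted p under 0.05, against 12.6% and 9.87% of all genes. DESeq2 called 1 and 0 of the 10, against 1.11% and 0.802% of all genes. The medians of the log2 fold changes were -0.77 and -0.99, against -0.01 and 0.0 for all genes, and 8 of the 10 values were below 0 in each. Without the library labelled WT replicate 1 the WT median was -0.71, again with 8 values below 0, and Duox2 moved from -0.95 to -0.36 and Dpp4 from -1.29 to -0.63. The others then had -1.44 (Clca2), -1.26 (Epor), -1.04 (Pcdh12), -0.88 (Ppef1), -0.74 (Adora2a), -0.67 (Ackr4), 0.42 (Dlgap3) and 0.84 (Kbtbd11). The WT median was -0.55 without WT+P replicate 1 and -1.5 without WT+P replicate 2, so it moved with the library left out. These contrasts share their untreated libraries with the rapamycin contrasts, so a high untreated library lowers both.

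Epor had the lowest value with propranolol in KO cells: counts of 222, 86 and 111 stood against 31, 20 and 46, without overlap, and the log2 fold change was -1.90 ± 0.51 (adjusted p = 0.251 in edgeR, 0.0918 with the replicate block and 0.0259 in DESeq2). In WT cells, counts of 315, 329 and 300 stood against 49 and 204 (-1.33 ± 0.56, adjusted p = 0.481), with -0.70 without WT+P replicate 1 and -2.52 without WT+P replicate 2. Clca2, at 45, 74 and 221 counts in KO+P cells, had -1.51 ± 0.59 (adjusted p = 0.354), which passed without KO+P replicate 3 (-2.64, adjusted p = 0.0316 in edgeR), a fit in which 2.24% of all genes were called. Pcdh12, at 147, 403 and 657 counts in KO+P and 70 and 690 counts in WT+P cells, had -1.57 ± 0.65 and -1.06 ± 0.74 (adjusted p = 0.363 and 0.665). The Pcdh12 value in WT cells was -0.23 without WT+P replicate 1 and -3.29 without WT+P replicate 2, and that in KO cells -2.29 without KO+P replicate 3. The 2 WT+P libraries also gave values far apart for other genes: without replicate 1 and without replicate 2 of WT+P, the values in WT cells were -0.17 and -3.70 for Ackr4, -0.85 and -2.57 for Clca2, 0.13 and -1.76 for Ppef1 and -0.52 and 1.41 for Kbtbd11. Dpp4 had -1.26 ± 0.66 and -1.29 ± 0.76 (adjusted p = 0.437 and 0.584), and in KO cells -0.46 without KO replicate 1 and -1.96 without KO+P replicate 3. Duox2 in KO cells moved from -0.68 to 0.03 without KO replicate 1.

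Dlgap3 and Kbtbd11 had values above 0 with propranolol, of 0.21 ± 0.35 and 0.35 ± 0.74 in KO and 0.12 ± 0.39 and 0.74 ± 0.81 in WT cells (adjusted p = 0.825, 0.864, 0.948 and 0.811), so both differed by less than their standard errors here, and Kbtbd11 had -0.60 in KO cells without KO+P replicate 1. Libraries with propranolol were lower without overlap for 2 genes in KO cells (Epor and Pcdh12), against 9.11% of all genes (9.58% were higher), and for 5 in WT cells (Clca2, Dpp4, Epor, Adora2a and Pcdh12), against 10.3% (10.8% were higher). Set side by side with rapamycin, the mean CPM with propranolol was 21.9 times the mean with rapamycin for Dlgap3 in WT and 15.8 times in KO cells, 5.54 and 4.47 times for Clca2, 11.8 and 4.23 times for Epor, 4.06 and 2.15 times for Pcdh12, and 0.105 and 0.0747 times for Ackr4. For Duox2 the ratio of the summed counts, scaled for depth, was 21.8 in WT cells (90 against 4 counts, exact 95% interval 8.24 to 81.9) and 121.0 in KO cells, where it rests on 1 count in KO+R replicate 3 (124 against 1, interval 21.3 to 4810, counting error only). These intervals too leave out the spread between libraries and the choice of Duox2 for its fall, and are not a test. The rapamycin and propranolol libraries of Pcdh12 overlapped in both genotypes, and those of Ppef1 in KO cells.

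**Figure D4:**
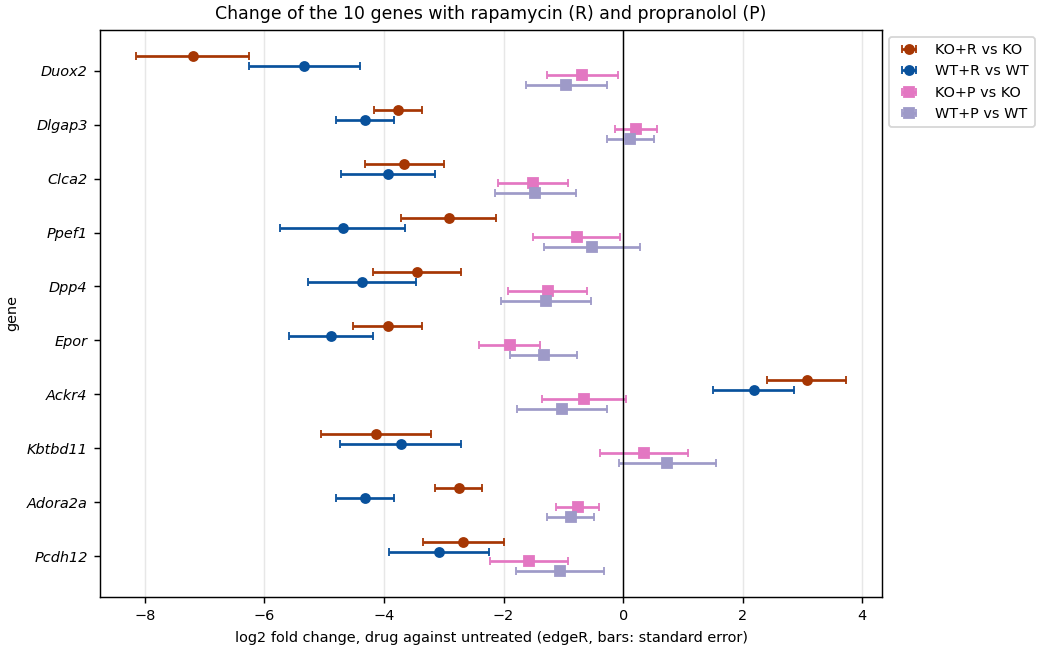
Log2 fold change of each gene on the x axis with its standard error, for rapamycin (circles) and propranolol (squares) in KO and WT cells. The rapamycin values of 9 genes lie between -7.20 and -2.67 and those of Ackr4 above 0, whereas the propranolol values lie between -1.90 and 0.74.

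KO+P against WT+P cells used no library of the rapamycin contrasts, although libraries of the same replicate number tended to deviate together across groups (median correlation 0.52). Here too 0 of the 10 genes were called (0.0% of all genes were), 2 had an unadjusted p under 0.05 (6.19% of all genes had) and DESeq2 called 0 (0.398% of all genes). Adora2a had counts of 90, 58 and 109 in KO+P and 167 and 310 in WT+P libraries, without overlap (log2 fold change -1.35 ± 0.39, adjusted p = 0.565 in edgeR). It was the only gene of the 10 without overlap, against 8.77% of all genes lower and 7.8% higher. Epor had -1.79 ± 0.55 (adjusted p = 0.574) with counts of 31, 20 and 46 against 49 and 204. Its value was -2.43 without WT+P replicate 1 and -0.60 without WT+P replicate 2. Neither gene passed the correction. The interaction of propranolol with genotype passed for 0 of the 10 genes (adjusted p = 1 for each; 0.0% of all genes passed, and 0 of the 10 had an unadjusted p under 0.05, against 0.721% of all genes).

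Libraries of the same replicate number deviated together, so drug and untreated libraries were also compared number by number. With rapamycin, 9 of the 10 genes were below 0 at each of the 5 numbers, with medians over the 10 genes of -4.13, -3.0 and -2.68 in log2 CPM (prior count 2) at KO replicates 1, 2 and 3 and of -4.28 and -3.56 at WT replicates 1 and 2. With propranolol the medians were -1.48, -1.07 and -0.08 in KO and -1.74 and -0.22 in WT cells. Replicate 1 gave the largest differences with propranolol in both genotypes: Pcdh12 had -3.31 there in WT cells, and Clca2 -3.33 in KO cells. The WT value at replicate 1 rests on the library labelled WT replicate 1, whose Pdcd10 level went against its label.

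**Figure D5:**
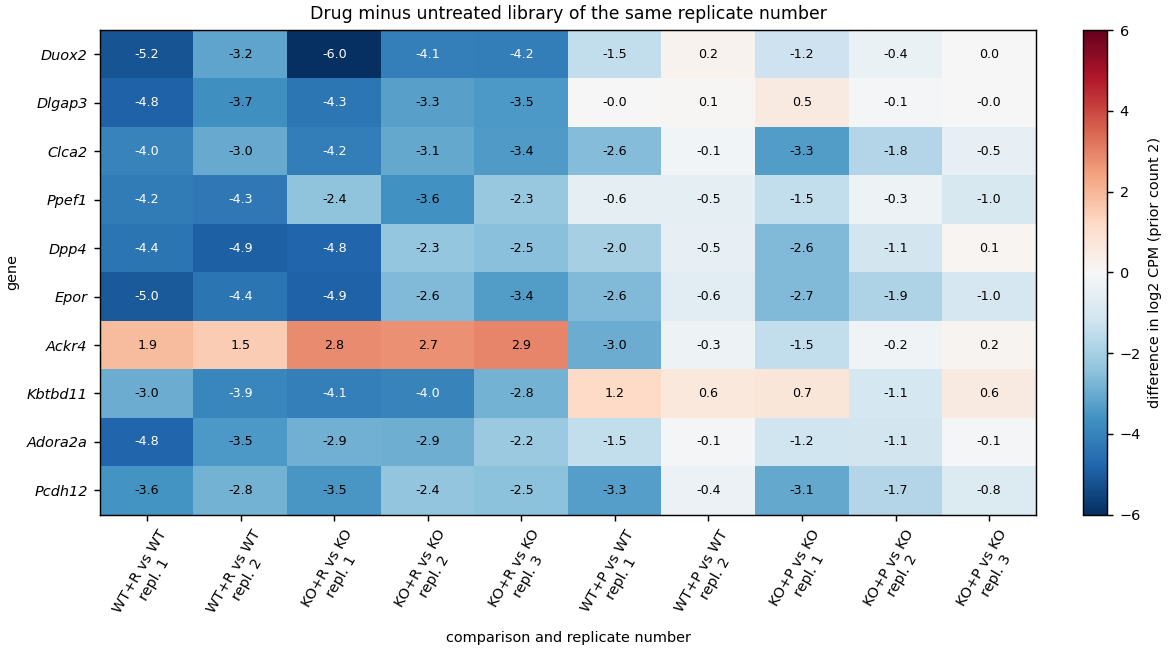
Difference in log2 CPM (prior count 2) between the drug library and the untreated library of the same replicate number, with the 10 genes as rows and comparisons with their replicate numbers as columns; blue is lower and red higher with the drug. The first 5 columns, with rapamycin, are blue for every gene except Ackr4, and among the propranolol columns those of replicate 1 are the deepest.

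Across the 16 libraries, log2 CPM (prior count 2) of the 9 genes correlated with each other at 0.35 (Kbtbd11 and Pcdh12) to 0.96 (Epor and Adora2a), and that of Ackr4 with the 9 at -0.36 to -0.90. All of these points share the rapamycin libraries in which the genes were chosen to be low, so the correlations are a description. The gene most like Duox2 was Cptp, a ceramide-1-phosphate transfer protein gene, followed by Smad1 and Mpp1 (Pearson r = 0.96, 0.96 and 0.95). Smad1, a signal transducer of BMP receptors, was also among the 3 closest to Kbtbd11, after Sncaip and Inka1 (r = 0.96 for each). Fxyd6, Arhgef26 and Septin9 were closest to Dlgap3 (0.97 each), and Slc38a3, an amino acid transporter gene, with Rarres1 and Iqsec1 to Clca2 (0.96 each).

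Fbln5, which encodes an elastic fibre protein, was among the closest 3 for Dpp4, Epor and Adora2a (r = 0.93, 0.96 and 0.94), and Sstr2, a somatostatin receptor gene, for Dpp4 and Adora2a (0.94 and 0.95). Trp53i11 was the third for Dpp4 (0.92), Sntg2 and Gm44914 completed the list for Epor (0.96 and 0.95) and Prag1 that for Adora2a (0.95). Slc4a11, Fgf11 and Nus1 were closest to Ppef1 (0.93 each). Snn, F2rl3, which encodes a thrombin receptor, and Dipk2b were closest to Pcdh12 (0.98, 0.98 and 0.97). Ctsf, a lysosomal cathepsin gene, Zdhhc1 and Bbs2 were closest to Ackr4 (0.96, 0.95 and 0.95), and had log2 fold changes of 0.57, 0.67 and 0.58 in KO+R against KO cells, smaller than that of Ackr4.

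Markers of other cells that the cultures could hold were read beside these results. Epithelial markers, of interest for Duox2 and Clca2, summed to at most 1.29 CPM in any library over 7 genes, 0 of which reached a mean of 1 CPM and 3 of which (Krt5, Krt14 and Ttr) were at 0 throughout. The 12 endothelial markers summed to a mean of 14300 CPM in WT, 11000 in WT+R, 13200 in KO and 12500 in KO+R cells, and 0 of them were called with rapamycin in edgeR; DESeq2, read for Cdh5 alone of the 12, called it in WT cells. The summed level of 8 mural cell markers, nearly all Tagln and Acta2, was higher with rapamycin: 94.7, 835 and 220 CPM in WT and 1460 and 2490 CPM in WT+R libraries, and 67.5, 202 and 148 CPM in KO and 450, 318 and 269 CPM in KO+R libraries. Of the 6 tested, Acta2 was called in edgeR, in WT cells (2.74, adjusted p = 0.0469), and Tagln had 1.26 and 2.26 in KO and WT cells (adjusted p = 0.637 and 0.34). Among markers of pericytes, Pdgfrb had 0.22 and 0.31, Rgs5 0.04 and -2.89 (adjusted p = 0.475 in WT cells) and Cspg4 0.28 and -0.46 (adjusted p = 0.919 in WT cells). Their part in the results was not tested.

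Microglia and macrophage markers, 1 of 8 above a mean of 1 CPM (Cd68) and P2ry12 at 0 throughout, summed to 5.34, 14.0 and 10.3 CPM in WT, 1.88 and 6.19 in WT+R, 9.88, 16.7 and 26.7 in KO and 3.49, 6.07 and 10.2 in KO+R libraries. None of the 4 tested passed in edgeR, and Csf1r had the value nearest to the threshold in KO cells (adjusted p = 0.0537), where 0.337 ± 0.138 CPM in KO stood against 0.0137 ± 0.0237 CPM in KO+R libraries (SD, n = 3), a level close to no counts. In WT cells Csf1r had -0.42 (adjusted p = 0.903 in edgeR). Fibroblast markers, led by Col1a1, summed to 20.4, 55.9 and 98.7 CPM in WT, 8.77 and 37.9 in WT+R, 12.0, 26.5 and 150 in KO and 6.62, 15.6 and 202 in KO+R libraries, so that replicate 3 held most of this signal in KO and KO+R cells. Means in WT, WT+R, KO and KO+R cells were 50.9, 54.6, 59.5 and 51.0 CPM for the astrocyte markers and 47.9, 32.7, 52.7 and 38.3 CPM for those of oligodendrocytes. Most of the first sum was Gja1 and most of the second Cnp, at means of 59.7 and 39.8 CPM over all libraries. Of the 7 markers in each list, 2 and 1 reached a mean of 1 CPM. Gfap and Aqp4 had 8 and 3 counts in all libraries, and Mog and Mag 7 and 5. There was no edgeR call among these lists. Their part in the results was not tested, and in these bulk samples fewer cells of a type and less RNA per cell cannot be told apart.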

How the data were processed

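Poly(A) RNA of 16 mBMEC samples was sequenced as unstranded paired-end libraries. Per transcript, the authors deposited the expected count, the TPM and the effective length of each library, as Salmon writes them (version 1.5.2 and build GRCm39 per the submitters' processing notes), although the methods of the study describe STAR and HTSeq. The expected counts deposited by the authors are not normalized between libraries, and the TPM values deposited by the authors are corrected for transcript length. The effective lengths and other length values deposited by the authors entered an alternative as an offset.

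Of 140789 transcripts, 139544 (99.12%) were named in GENCODE M39. The others were left out (0.39 to 0.57% of all counts), and 0 columns lacked a sample. Expected counts were summed over 54193 genes and rounded. Depth was 18.83 to 26.2 M, and TMM factors were 0.934 to 1.041. edgeR 4.0.16 (R 4.3.3) fitted all libraries as 6 groups with the quasi-likelihood test, after filterByExpr had kept 14838 of 27228 genes with any count, with p-values adjusted over those. The biological coefficient of variation was 32.3%. Genes were called at an adjusted p under 0.05 and more than a 1.5-fold change; for the interaction the adjusted p sufficed. CPM values are TMM-normalised. The alternatives were DESeq2 1.42.0, its size factors in edgeR, no filter, a replicate block, a length offset, only the groups compared, and each library left out. The fits were tested on simulated data.

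The 10 genes and the partner and marker lists were chosen with earlier results of these data known. The genes named are these 10, partner genes called in the main model or an alternative, up to 4 close partners a list, the 3 most correlated genes, neighbours (1 is not reported here), and Pdcd10; Acta2, Tagln, Rgs5, Cspg4 and Csf1r, and the markers named by their counts, were picked from the marker lists after their values were seen. Each library is a biological replicate per the labels. Neither the labels nor the methods state that replicate numbers pair the libraries. In the values, deviations from the group means of libraries with the same number correlated at 0.03 to 0.69 (36 pairs, median 0.52), against a median of -0.23 over 70 pairs with different numbers, and at 0.19 or more in every pair of the contrasts used. Taking group means away by itself pushes the values at different numbers towards negative ones. In WT+P and WT+R the deviations of the libraries are exact opposites, so the pairs are not independent. The authors' comparisons and the RT-qPCR, imaging and mouse experiments were not used here.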

Additional observations from a re-analysis of the deposited data

How the results depend on the processing

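Of the 10 genes, 0 were called between KO and WT cells, with propranolol in either genotype, between KO+P and WT+P cells or in the interaction under every alternative, with 3 exceptions: DESeq2 called 1 between KO and WT cells (Adora2a) and 1 in KO+P against KO cells (Epor), and the fit without KO+P replicate 3 called 1 in KO+P against KO cells (Clca2), so that leaving out libraries gave 0 to 1 there. The partner genes called in KO+R against KO cells, 4 in the main model, were 2 without the filter on low counts, 2 with the length offset, 2 with only the groups compared, and 1 to 3 when a library was left out. In WT+R against WT cells, 4 in the main model became 9 in DESeq2, 0 with only the groups compared (8 genes of all were called there), and 0 to 5 when a library was left out. The rapamycin values of the 10 genes kept their sign in all 22 alternatives of each contrast. The causes of these shifts were not tested.

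With the replicate number as a block, 0 of the 10 genes were called in each of the 5 comparisons that were tested, as without it. The block gave 5 partner genes in KO+R against KO and 6 in WT+R against WT cells, and over all genes it raised the calls from 224 to 739 in KO+R against KO and from 207 to 677 in WT+R against WT cells; DESeq2 gave 473 and 542. In the other 4 contrasts of groups the block called 27 genes in KO against WT, 21 in KO+P against KO, 12 in WT+P against WT and 13 in KO+P against WT+P cells, and DESeq2 64, 164, 119 and 59, against 1, 1, 1 and 0. Leaving out any KO or KO+R library lowered the calls with rapamycin in KO cells to between 51 and 87, and leaving out WT replicates 1 or 3 or either WT+R library lowered those in WT cells to between 25 and 93 (140 without WT replicate 2). With propranolol, leaving out a library gave 1 to 332 calls in KO cells (332 without KO+P replicate 3) and 0 to 546 in WT cells (546 without WT+P replicate 2), against 1 in each in the main model, and 0 to 2 in KO against WT and 0 to 3 in KO+P against WT+P cells. Counts of 0 to 21 a library, as for Duox2 with rapamycin or Ackr4 without it, limit how well a fold change can be told.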
